A study of Arabidopsis thaliana with 2 samples.

Results

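LATERAL ORGAN BOUNDARIES DOMAIN (LBD) genes encode a plant-specific family of DNA-binding proteins. The members described here are the 35 nuclear protein-coding genes of Arabidopsis thaliana whose symbol in the RefSeq TAIR10.1 gene table is LBD followed by a number, of 27444 such genes in all. The measurements come from micrococcal nuclease (MNase) digestion, in which linker DNA is cut and DNA wrapped in nucleosomes is protected and sequenced. Seedlings of 2 to 3 weeks, grown in long days, gave 1 library from nrpe1, which lacks the main catalytic subunit of RNA polymerase V, and 1 library from the Col-0 wild type, both size-selected on a 2% agarose gel. The deposited file is a single list of 397452 nucleosomes that assigns none of them to nrpe1 or to Col-0, so the genotypes were not compared and all values describe the pooled list, with 0 replicates and at unknown depth.

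LBD proteins share the LOB domain, which holds a zinc finger-like motif that contacts DNA, and most of class I also carry a leucine zipper-like stretch through which they pair with one another. Members of class I act in organ boundaries, lateral roots, callus, vascular tissue and pollen, often downstream of auxin. Class II members are known for repressing anthocyanin synthesis and nitrate-responsive genes, and for responses to low oxygen. Many of these genes are active in few cells at a time, and a whole seedling mixes those cells with many others, whose shares in these libraries were not measured.

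Within the 35 genes lay 180 listed nucleosome centres, and 98 more lay within 1 kb on either side. The genes were 475 to 3230 bp long, with a median of 1278 bp, and 34 lay on chromosome arms, the exception being LBD5. Each was set beside the 500 other coding genes nearest to it in length. Density in the gene body ran from 1.86 to 7.06 centres per kb with a median of 3.73, against a median of 4.14 in the length-matched genes and 4.03 in all other coding genes. The sum of 180 centres (95% Poisson interval 155 to 208, counting error only) stood against 197 at the mean density of the matched genes. Nucleosomes covered a median of 49.3% of the LBD gene body, against 52.7% of matched genes. By this measure 11 members, or 31.4%, were below the lower quartile, beside 25% of all coding genes, and 8, or 22.9%, above the upper one, beside 25.2%. The share of centres whose interval overlapped a listed neighbour was 62.2% in LBD genes against 63.8% in matched genes.

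Every member held at least 1 centre, while 1.11% of all coding genes held none. Density was below the matched median in 22 of the 35 bodies, or 62.9%, where 50% of all coding genes are. By quartiles, 12 LBD genes lay below the lower quartile of their matched genes, or 34.3%, where 24.7% of all coding genes do. Above the upper quartile lay 7, or 20%, where 24.9% of all coding genes do. The lower count was 6 when only nucleosomes with a Score at or above the median of the list were kept. The share of all coding genes in that set was not taken. Among the 29 members of 600 bp or longer the lower count was 7, near the 24.7% of all coding genes. LBD11, LBD16 and LBD18 were just under their quartiles, for example LBD16 at 3.02 per kb with a quartile of 3.03.

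**Figure D1:**
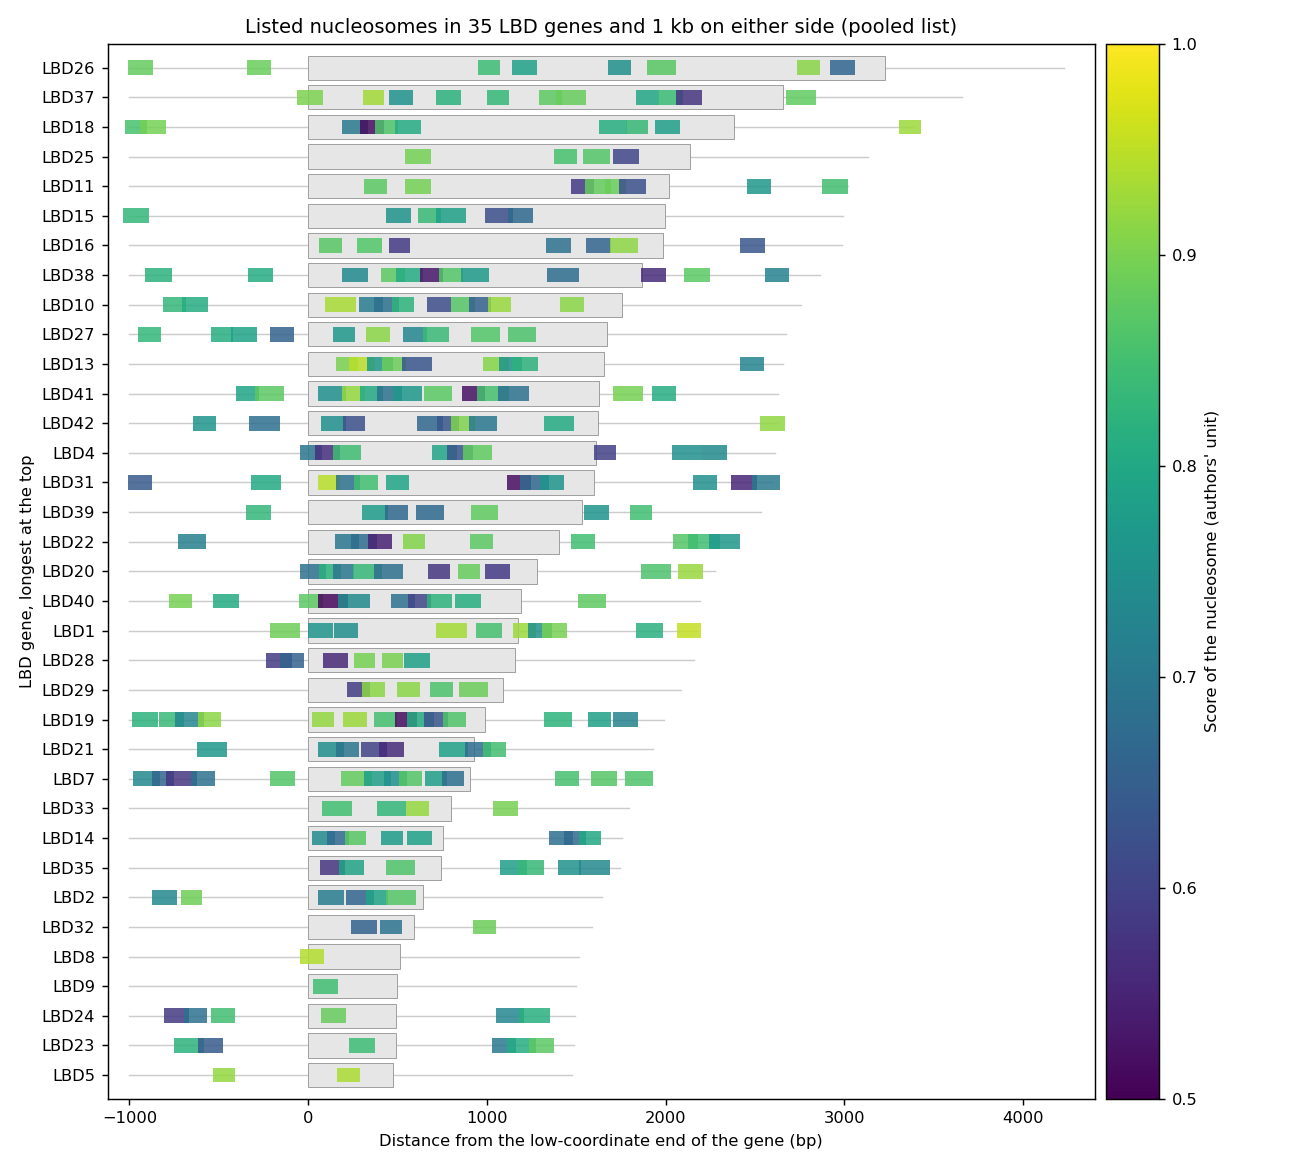
Each row is 1 LBD gene, drawn as a pale box from its low-coordinate end, with 1 kb on either side as a line; the x axis is distance in bp, and each coloured bar is a listed nucleosome with its Score by colour. Bars are denser inside most genes than in their flanks, and LBD16, LBD18 and LBD11 have a wide empty stretch inside the gene.

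By gene size the members fell as follows, with size classes chosen after the values had been seen and not tested. Over coding genes of all sizes 24.7% lay below the lower quartile and 24.9% above the upper one. Shares by size class were not taken. Of the 6 genes under 600 bp, 5 were below the lower quartile, and their median was 2.04 per kb against 4.16 in matched genes. These 5 were LBD5, LBD8, LBD9, LBD23 and LBD24, each with a single centre. Matched lower quartiles for them were 2.13 to 2.25 per kb, so that 1 centre in about 500 bp falls just under the quartile. Among nucleosomes with a Score at or above the list's median of 0.790, LBD8, LBD9 and LBD23 stood at 0.982, 0.993 and 0.993 times their matched medians. In the whole list they stood at 0.475, 0.487 and 0.489, and each change was within the counting interval. Each of these values rests on 1 centre. The ratio was not taken for LBD5 and LBD24, whose single nucleosomes, with Scores of 0.937 and 0.883, were also above that median. The 13 genes of 600 to under 1500 bp had a median of 5.39 per kb against 4.23, with 0 below the lower quartile and 6 above the upper one. LBD1, LBD22, LBD28, LBD33 and LBD35 of this class were nevertheless below their matched medians. The 16 genes of 1500 bp or longer had 3.65 per kb against 4.01, with 7 below and 1 above, LBD41 at the 80.3 percentile, and LBD10 at the 74.9 percentile. Over the 35 members, Spearman's rho between length and density relative to matched genes was 0.0070.

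**Figure D2:**
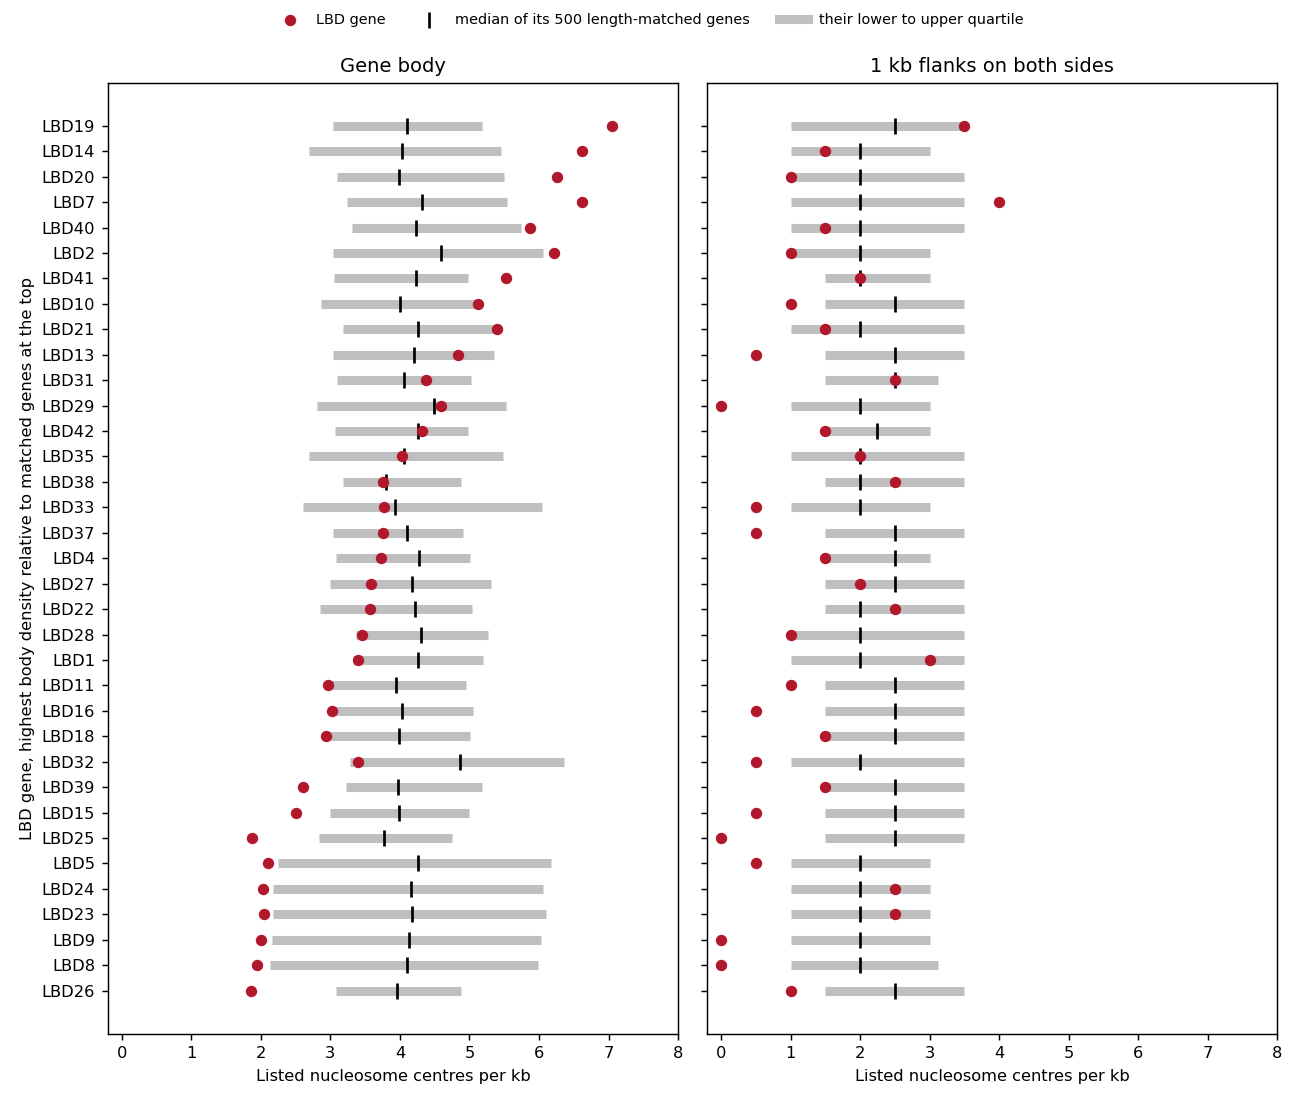
Listed centres per kb in the body (left) and in both flanks (right) of each LBD gene (red), with the median (tick) and quartiles (grey) of its 500 length-matched coding genes. LBD19 is at the top with 7.06 per kb in the body and LBD26 at the bottom with 1.86; in the flanks most red points lie left of the ticks.

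The lateral root and callus genes act downstream of the auxin response factors ARF7 and ARF19. The 5 of them that carry an LBD symbol had 26 centres, a median of 3.76 per kb in the body and of 0.5 per kb in the flanks. LBD16 (AT2G42430), needed for the founder cell divisions that start a lateral root, held 6 nucleosomes in 1985 bp. They formed a group of 3 at its low-coordinate end and a group of 3 at the other end, and 760 bp between them held none, where matched genes had a median longest stretch of 277 bp. On chromosome 2 the inner borders of this stretch were the nucleosomes listed at 17663803 to 17663924 and at 17664685 to 17664824. Its flanks held 1 centre, 502 bp past the high-coordinate end.

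LBD18 (AT2G45420), which acts with LBD16 in lateral root emergence, had the same layout. It held 7 nucleosomes in 2382 bp, or 2.94 per kb, at the 20.8 percentile of its matched genes. A group of 4 ended 630 bp into the gene and a group of 3 began at 1629 bp, with 998 bp unlisted between them. That was the longest such stretch in any member, at the 97.4 percentile of matched genes, whose median was 371 bp.

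LBD29 (AT3G58190), a regulator of callus formation and lateral roots, looked different from both. Its 5 nucleosomes, 4.59 per kb, ran through the gene from 284 bp inside the low-coordinate end to 163 bp inside the other, and no stretch over 69 bp between them was unlisted. Their median Score of 0.887 was the highest among members with at least 3 nucleosomes, at the 94.5 percentile of matched genes. Outside the gene no centre lay within 1 kb on either side, and the nearest were 1590.5 and 1538 bp away.

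LBD33, whose protein pairs with LBD18, held 3 nucleosomes at 3.76 per kb. LBD14 held 5 in 756 bp, or 6.61 per kb at the 86.4 percentile. Among nucleosomes with a Score at or above the list's median of 0.790, LBD14 went from 1.64 to 0.521 times its matched median. That is outside the counting interval of its whole-list value, 0.533 to 3.83. Only its nucleosome with a Score of 0.871 was kept in this set, and another, at 0.785, lay close under the median. The counting interval of the lower value was not taken, so the size of the change is uncertain.

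Genes of vascular and secondary growth were the sparsest of the role groups in the body, with a median of 3.18 per kb over 4 members and 21 centres. LBD15 (AT2G40470), which acts in the shoot meristem and in tracheary cells, held 5 nucleosomes at 2.51 per kb. In the higher-scoring set it went from 0.629 to 0.252 times its matched median, within its counting interval. All 5 lay in the middle of the gene, the outermost 506 and 807 bp from its ends. LBD11 (AT2G28500), active in the cambium, held 6 at 2.97 per kb, with 784 bp unlisted between the second and the third (95 percentile) and a median Score of 0.877. LBD1 (AT1G07900) held 4 at 3.40 per kb and 433 bp unlisted (94.6 percentile). Its flanks were among the fullest, with 6 centres or 3 per kb. LBD4 (AT1G31320), expressed at the border of phloem and procambium, held 6 at 3.73 per kb. On its low-coordinate side the next listed centre was 8101.5 bp away, the longest such distance of any member.

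Pollen genes spread from one of the emptiest members to above the matched median. LBD25 (AT3G27650) held 4 nucleosomes in 2135 bp, or 1.87 per kb at the 7.5 percentile, covering 26.7% of the gene. They were listed on chromosome 3 at 10239057 to 10239202, 10239891 to 10240017, 10240054 to 10240204 and 10240218 to 10240364, with no centre in the flanks and 0% of the flanks covered. The nearest outside lay 3147 and 2664 bp from the gene. Its median Score was 0.861, at the 91.4 percentile. LBD27 (AT3G47870), also called SIDECAR POLLEN and needed for the asymmetric division of the microspore, held 6 at 3.58 per kb. It had 4 centres within 1 kb on its low-coordinate side and 0 on the other. LBD22 held 5 at 3.57 per kb, with a low median Score of 0.697. LBD10 (AT2G23660) held 9 at 5.12 per kb, the fullest of the 4.

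Class II genes had a median of 4.04 per kb over 6 members, beside 3.57 per kb in the 29 members of class I, and 44 centres in all. Relative to their own matched medians, class II genes had a median of 1.001, from 0.658 for LBD39 to 1.39 for LBD40, and class I genes had a median of 0.846. All 6 members under 600 bp are class I, and LBD5, LBD8, LBD9, LBD23 and LBD24 among them held a single centre each. Median lengths were 1159 bp in class I and 1624.5 bp in class II. Class medians without the short members were not taken, and the difference between the classes was not tested. The repressors of anthocyanin synthesis are class II genes. LBD37 (AT5G67420) held 10 nucleosomes at 3.76 per kb, LBD38 (AT3G49940) 7 at 3.75 and LBD39 (AT4G37540) 4 at 2.61, at the 41.8, 43.3 and 18.8 percentiles, with counting intervals of the ratio to matched genes that overlapped (0.440 to 1.69 for LBD37, 0.398 to 2.04 for LBD38 and 0.179 to 1.68 for LBD39). Flanks held 1 centre for LBD37, 5 for LBD38 and 3 for LBD39. Median Scores were 0.837, 0.770 and 0.722 in that order. Among nucleosomes with a Score at or above the median LBD37 went from 0.918 to 1.59 times its matched median and LBD39 from 0.658 to 0.330, each within its counting interval. LBD40 held 7 nucleosomes at 5.87 per kb and LBD41, which low oxygen induces, held 9 at 5.53. LBD42 held 7 at 4.32 per kb with a median Score of 0.699, at the 9.0 percentile.

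Among members with other or less known roles were the ends of the range. LBD19 (AT2G45410) had the highest density relative to matched genes, with 7 nucleosomes in 992 bp, 78% of the gene covered and 1.72 times the matched median (counting interval 0.693 to 3.55). LBD7 (AT1G72980) held 6 at 6.62 per kb and had the fullest flanks of all, with 8 centres. LBD20, a gene of susceptibility to Fusarium wilt, held 8 at 6.26 per kb with a low median Score of 0.691. In the higher-scoring set LBD7 went from 1.53 to 1.01 and LBD20 from 1.57 to 1.02 times their matched medians, within their counting intervals, whereas LBD19 stood at 2.49. LBD21 held 5 in 927 bp, none of which reached the median Score of the list, so that its density of 5.39 per kb became 0 in the higher-scoring set. LBD26 (AT3G27940), the longest member, was lowest relative to matched genes, with 6 nucleosomes in 3230 bp and 0.469 times the matched median (0.172 to 1.02). Its first centre lay 1011 bp inside the low-coordinate end. Between these ends, LBD2 had 6.22 centres per kb, LBD13 4.83, LBD31 4.37, LBD35 4.03, LBD28 3.45 and LBD32 3.39, of which LBD2 alone was outside the quartiles of its matched genes.

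LBD23 and LBD24, 2 short neighbours of 490 and 492 bp on chromosome 3, had the same counts. Each held 1 nucleosome, listed at 9790859 to 9791003 in LBD23 and at 9797203 to 9797342 in LBD24, and 5 in the flanks. Whether reads of these genes or of other like copies can be told apart was not tested. The single nucleosome of LBD8 had a Score of 0.942 and straddled the low-coordinate end, with its centre 23.5 bp inside.

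A long unlisted stretch between nucleosomes of the same gene was found in several members besides LBD16, LBD18, LBD11 and LBD1. Of the 30 members with at least 2 nucleosomes, 11 had a longest stretch above the upper quartile of matched genes, or 36.7%, where 25.1% of all coding genes do. LBD25 had 688 bp, LBD26 674 bp and LBD31 547 bp. Below the lower quartile were 4 members, or 13.3%, where 23% of all coding genes are. LBD41 was one of them, with 53 bp at the 8.7 percentile. Exons and introns were not used here, so what lies in these stretches was not determined.

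Outside the genes, the flanks of LBD genes held fewer listed nucleosomes than those of matched genes. The median was 1.5 centres per kb against 2, and the share of the flank covered was 17.6% against 29.1%. In all there were 98 centres (95% Poisson interval 79.6 to 119) against 168 at the mean density of matched flanks. Flank density was below the matched median for 25 of 35 LBD genes, or 71.4%, beside 44.7% of all coding genes. Flanks below the lower quartile belonged to 14 of 35 LBD genes, or 40%, where 20.6% of all coding genes have them. Above the upper quartile lay 1, LBD7, or 2.86%, where 20.4% of all coding genes do. By share of the flank covered, 17 members, or 48.6%, were below the lower quartile, beside 25% of all coding genes, and 2 above the upper one, or 5.71%, beside 25.1%. LBD8, LBD9, LBD25 and LBD29 had no centre on either side, 11.4% of members beside 4.73% of all coding genes. At least 1 side without a centre was found for 21 members, or 60%, beside 34.7%.

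The gene content of the flanks moved with this difference. A median of 14.2% of the LBD flanks lay in another annotated gene, against 43.7% for matched genes, and 13 members had flanks free of other genes. Where flanks had no other gene, LBD genes had a median of 0.5 centres per kb and 3738 other coding genes had 1, which is a single step of the scale, and the share covered was 11.2% against 11.6%. With over 0 to 25% of the flank in another gene, 8 LBD genes had 1 and 4173 other genes had 1.5, with 12.1% against 17.15% covered. With over 25 to 50% of the flank in another gene, 10 LBD genes had 1.75 and 9129 other genes had 2. In the class of over 50 to 75%, 1 LBD gene had 1.5 and 4875 other genes had 3. With over 75 to 100%, 3 LBD genes had 2.5 and 5494 other genes had 4, with 34.15% against 48.75% covered. Set beside 500 genes of like length and like gene content of the flank, LBD flanks had the same median of 1.5 per kb, and 17.6% against 20.4% covered. In that setting 8 of 35 members, or 22.9%, were below the lower quartile and 3 above the upper one, where 20.6% and 20.4% of all coding genes are when matched on length alone. In flank sequence outside every other gene the LBD median was 0.713 times that of length-matched genes, while 0 members lay below the lower quartile and 7 above the upper one. The lower quartile there is 0 per kb, so that no gene can lie below it. The share of all coding genes above the upper quartile was not taken in that setting, so the 7 cannot be read as many or few. The fullest flanks, those of LBD7, lay in other genes for 80.3% of their length.

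**Figure D3:**
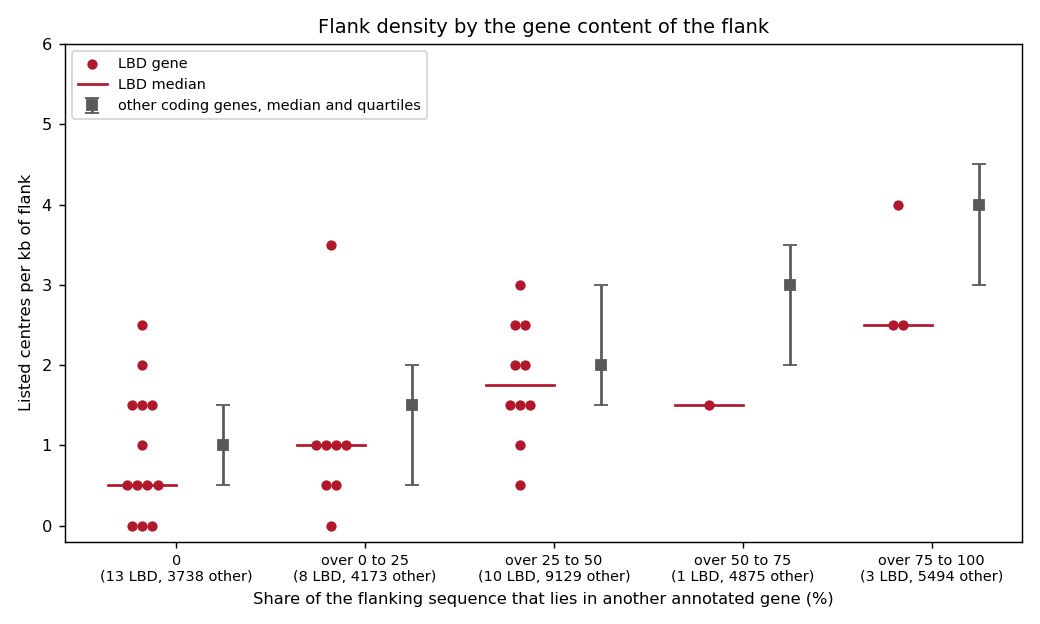
Listed centres per kb of flank (y axis) for LBD genes (red points, line at the median), with the median and quartiles of all other coding genes (grey), by the share of flanking sequence that lies in another gene. Grey medians climb with the genic share of the flank, and the red medians lie under them in each class, where the class of over 50 to 75% holds 1 LBD gene.

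Around gene ends the LBD genes had a wide trough. In the 200 to 500 bp outside an end there were 21 centres over 70 ends, or 1 per kb (95% Poisson interval 0.619 to 1.53), against 2.27 per kb at the ends of matched genes. The 100 bp bins from 500 to 200 bp outside stood at 0.341, 0.498 and 0.502 times matched genes. Among nucleosomes with a Score at or above the list's median they stood at 0.550, 0.837 and 0.815. In that set the counting interval of each of these bins held the matched value. From 500 to 1000 bp outside it was 1.77 per kb for LBD genes against 2.82 for matched genes, and in the first 200 bp outside 1.07 against 1.52. Inside the gene it was 2.57 per kb in LBD genes against 3.02 in matched genes in the first 200 bp, 4.93 against 4.89 from 200 to 500 bp, and 3.80 against 4.34 from 500 to 1000 bp. Farthest in, from 800 to 900 bp and from 900 to 1000 bp, 4 and 2 centres gave 2.05 and 1.38 per kb in LBD genes, against 4.19 in matched genes in both bins. Shorter members do not reach these bins, which held 1950 and 1446 bp of LBD gene, against 7000 bp in the first 100 bp inside. The values there describe the longer members only. The median distance from a gene end to the next centre outside, averaged over both ends of a gene, was 796 bp against 503 bp. Starts and ends of genes are mixed here, since the gene table used gives no strand. Genes were matched on length alone, and a median of 14.2% of LBD flanks lay in other genes, against 43.7% of matched flanks. Whether the values outside gene ends go with this difference was not tested.

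**Figure D4:**
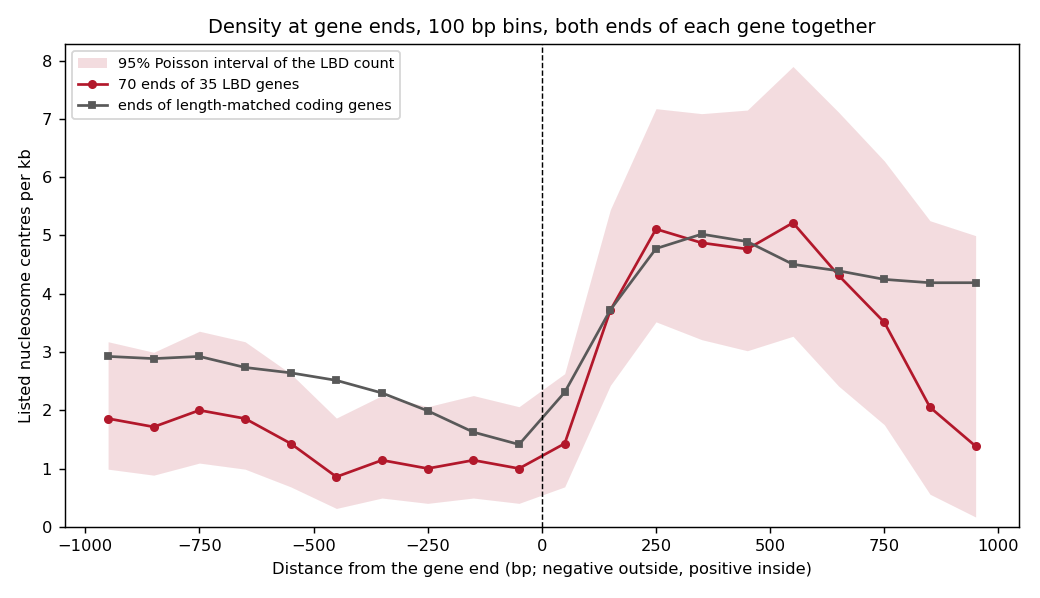
Listed centres per kb in 100 bp bins from 1000 bp outside to 1000 bp inside a gene end, for 70 ends of LBD genes (red, band: 95% Poisson interval) and of length-matched coding genes (grey). The red line stays between 0.857 and 2 per kb outside the gene and lies near the grey line from 100 to 700 bp inside. Beyond that it lies lower, and its last bins rest on 4 and 2 centres. Shorter genes drop out of the inner bins, which hold 7000 bp of LBD gene in the first 100 bp and 1446 bp from 900 to 1000 bp.

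Scores inside LBD genes were close to those elsewhere. The median over members of the median Score was 0.805 against 0.792 in matched genes, and 18 of 35 lay above their own matched median. Above the upper quartile were 12, or 34.3%, where 25.1% of all coding genes are, and below the lower quartile were 8, or 22.9%, where 25.2% are. The highest single Score in the body of a member, 0.947, belonged to LBD13 on chromosome 2 at 12931403 to 12931544. The lowest, 0.511, belonged to LBD40 on chromosome 1 at 25053728 to 25053896. Members with more centres per kb tended to lower median Scores (Spearman's rho -0.36 over 35 genes, and -0.15 over the other coding genes, all read from the same list). Interval lengths had a median of 139 bp against 137 bp.

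Family members with other symbols were kept out of the 35. JLO (AT4G00220, LBD30), which acts in organ boundaries, held 8 nucleosomes at 3.41 per kb with 1142 bp unlisted between 2 of them, longer than in any of the 35. LOB (AT5G63090), the founding member, held 5 at 2.00 per kb, 0.504 of its matched median, and no centre in its flanks. AS2 (AT1G65620), which represses KNOX genes in leaves together with AS1, held 7 at 2.46 per kb with 2 centres in the flanks. By body and by flank density, LOB and AS2 were both under the lower quartile of their matched genes. ASL9 (LBD3), ASL5 (LBD12), ASL15 (LBD17) and ASL1 (LBD36) stood at 0.870, 0.819, 1.21 and 0.587 times their matched medians.

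Partners, upstream genes and targets of the family were read in the same way. Of 12 partners and upstream genes, 2 lay below the lower and 3 above the upper quartile of body density, where 24.7% and 24.9% of all coding genes do. By flank density 5 lay below the lower and 1 above the upper quartile, where 20.6% and 20.4% of all coding genes do. NPH4 (ARF7), the auxin response factor that switches on LBD16 and LBD29, held 33 nucleosomes at 5.75 per kb, at the 95.2 percentile, and ARF19 held 27 at 4.95. PUCHI and BOP2, which act in lateral root primordia and at leaf boundaries, had 3.96 and 3.82 per kb in the body and no centre in the flanks. Of the 3 targets, E2F3 (E2FA), a cell cycle regulator switched on by LBD18 with LBD33, held 20 at 5.45 per kb. The expansin genes EXPA14 and EXPA17, which loosen cell walls, had 4.27 and 5.81 per kb.

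Sparse flanks were also found in 2 other families of transcription factors, MYB and WRKY. Flank density was below the lower quartile in 40% of LBD genes, in 50.4% of 115 MYB genes and in 49.3% of 67 WRKY genes. Median body density relative to matched genes was 0.871 for LBD, 0.844 for MYB and 0.864 for WRKY. A median of 0.050% of MYB flanks and of 17.2% of WRKY flanks lay in other genes. Differences between the 3 families were not tested.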

How the data were processed

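The authors deposited 1 list of nucleosomes with chromosome, start, end and a Score per nucleosome, per the file headers. The submitters' processing notes name Bowtie and TAIR10. Neither the caller, nor what the Score measures, nor how 2 libraries became 1 list is given in the sources used here. No column (0) holds values of a single library, and a pooled list can hold alternative positions of both genotypes. The depth is unknown.

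A nucleosome was assigned to a gene of the RefSeq TAIR10.1 table where the midpoint of its interval lay in the gene or within 1 kb. Whether the list counts from 0 or from 1 is not stated, so positions are printed as listed. The profile of centres at gene ends was compared between chromosomes in 10 bp bins. The best lag was 0 bp on all 5, with correlations of at least 0.985. A shift between list and table that all chromosomes share would not show in this comparison. Comparison genes were the 500 other coding genes nearest in length, and 1 gene can serve several members. Percentiles are among these 500. Flank density is over 2 kb. Arm windows were those of 500 kb with at least 50% of the median gene density of their chromosome. There are no samples to test, so no p-value is given. Poisson intervals (95%) cover counting error only, while genes are not replicates. The density and quartile steps were tested on simulated lists.

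Named in full are the 4 lowest and highest bodies, the 3 lowest and highest flanks and Scores, the extremes of each role group, and LBD16, LBD18, LBD29, LBD37, LBD38 and LBD39. The related genes come from a list written with the role groups, and every other gene was named after its values were seen. The members, role groups and lists were chosen with earlier results of these data known. Alternatives were the higher-scoring nucleosomes, any overlap, other matching, other flanks and bins of 50 bp. Python 3.11.15, numpy 2.4.6, pandas 2.3.3 and scipy 1.17.1 were used.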

Additional observations from a re-analysis of the deposited data

How the results depend on the processing

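No paired analysis was possible because there is 1 library per genotype and the list names no library. No member had another of the 35 within 5 kb, so leaving out such neighbours changed nothing. Under other symbols, ASL15 lies within 5 kb of LBD16 and JLO within 5 kb of LBD31. Without these 2 members 11 bodies and 13 flanks of the remaining members lay below the lower quartile, where 24.7% and 20.6% of all coding genes do. Values were compared with the 95% order-statistic interval of the members' median, or the Poisson interval of a count, and counts with a factor of 1.5. Of 88 alternative values that answer a comparison, 72 stayed within these limits and 16 moved. For the lowest bin outside gene ends and the highest inside, each setting was read at its own bin. In the whole list these bins, 500 to 400 bp outside and 500 to 600 bp inside, stood at 0.341 and 1.16 times matched genes. In the same bins the higher-scoring set stood at 0.550 and 1.09. With a Score at or above the median, 6 bodies lay below the lower quartile, and 8 flanks below and 3 above theirs. Shares of all coding genes in that set were not taken. Without members under 600 bp, 7 bodies lay below, where 24.7% of coding genes of all sizes do, and the Score difference turned from 0.013 to -0.012, within its spread. Flanks above the upper quartile numbered 2 by share covered, where 25.1% of all coding genes lie above. They numbered 2 with matched genes on arms and with flanks of 500 bp, and 0 with flanks of 2 kb. Shares of all coding genes in these last settings were not taken. Outside other genes the flank counts were 0 below and 7 above, where the lower quartile is at 0 per kb. Matched on the gene share of the flank, the flank ratio became 1, with 8 flanks below and 4 above, and matched on length as well it was 1, with 8 and 3. Shares of all coding genes were not taken outside other genes or in these matched settings. The cause of the moves with Score was not tested. For single named genes 70 of 72 values stayed within their spread, 4 of which crossed 1, and LBD14 (0.521) and LBD21 (0) left it in the higher-scoring set. This spread is the counting interval of the gene's whole-list value. Counting intervals of the smaller counts in the higher-scoring set were not taken. The alternatives without members under 600 bp, without members near a family gene of another symbol, by share of the flank covered and by gene content of the flank were chosen after seeing the data. Since a flank holds few centres, densities move in steps of 0.5 per kb, and single genes of 1 to 5 nucleosomes cannot be told apart by density.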
